A study of Rattus norvegicus with 30 samples.

Results

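Natural killer cells and cytotoxic T cells kill other cells on contact. They read stress and identity signals with surface receptors, release granules that hold a pore-forming protein and proteases, and secrete interferon gamma. The genes described here are 9 genes of this machinery, Klrk1, Klrd1, Ncr1, Il2rb, Ctsw, Gzmb, Prf1, Nkg7 and Ifng, chosen by name, out of 26913 genes with a probe on the array. An array identifier with no gene symbol counts as a gene in that number. The 9 genes were found through the transcript that the array's design assigns to each probe, which gave 11 probes, with a pair of probes each for Klrk1 and Gzmb. A probe was kept where the lung channel stood well above background in 5 or more of the 30 rats, and 8 of the 9 genes had such a probe. Ifng did not, being well above background on 1 array.

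Lung RNA came from 30 adult male Wistar Unilever outbred rats (HsdCpb:WU), 5 in each of 6 groups, and each rat gave 1 array. The rats breathed air, 3.3 mg/m3 (low dose) or 13.2 mg/m3 (high dose) of copper oxide nanoparticles through the nose on 5 consecutive days. Lungs were taken the day after the last exposure (day 6) or after a recovery of about 3 weeks (day 28), from different rats. The labels give the particle as treatment for the rats at 0 mg/m3 too; these are the air controls that the protocol describes. All values are log2 ratios of a rat's RNA over 1 common reference RNA, so a level can be compared between rats but not between genes. The arrays' median lung signal lay between 216 and 432, with 59.5% to 68.4% of probes well above background. Air rat 4 of day 6 stood apart in 4 heart muscle genes, with a mean of 4.25 against -1.53 to -0.03 in the other air rats of that day, relative to the mean of those 5. Low dose rat 49 of day 6 was at 2.27, low dose rat 54 and high dose rat 83 of day 28 were at 1.49 and 1.52, and the other rats lay at or below -0.03. Fold changes carry standard errors (SE) and p-values adjusted over all 18421 tested genes.

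These genes divide by role. Klrk1 encodes NKG2D, an activating receptor of natural killer and CD8 T cells that binds stress-induced ligands. Klrd1 encodes CD94, which pairs with NKG2 receptors, and Ncr1 encodes NKp46, an activating receptor largely restricted to natural killer cells and related innate lymphocytes. Il2rb encodes the receptor chain shared by interleukin 2 and interleukin 15. Prf1 encodes perforin, Gzmb the protease granzyme B, Ctsw cathepsin W, a protease of natural killer and CD8 T cells, and Nkg7 a granule membrane protein needed for degranulation. Most of them are made by activated CD8 T cells as well as by natural killer cells.

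In RefSeq's annotation of GRCr8, Klrd1 (chr4:164730833-164742539) and Klrk1 (chr4:164767377-164778453) lie near each other in the natural killer gene complex. Ncr1 lies at chr1:78657409-78665255, Nkg7 at chr1:102981497-102982564, Ctsw at chr1:212201904-212208028, Il2rb at chr7:111913828-111928537 and Ifng at chr7:55789180-55793216. Gzmb lies at chr15:34459007-34462469 and Prf1 at chr20:29789040-29794550. RefSeq promoters of that build matched 5 of the 9 genes. Of these, 4 are shown as the 250 bases before the annotated start, because Klrk1 rose at the high dose while Gzmb, Prf1 and Nkg7, whose log2 ratios varied together between rats, did not pass the test. Capitals mark matches, on either strand, to short motifs of factors known in these cells. The Klrk1 window starts at a transcript start inside the gene's annotated span.
Klrk1, chr4:164778383-164778632, minus strand: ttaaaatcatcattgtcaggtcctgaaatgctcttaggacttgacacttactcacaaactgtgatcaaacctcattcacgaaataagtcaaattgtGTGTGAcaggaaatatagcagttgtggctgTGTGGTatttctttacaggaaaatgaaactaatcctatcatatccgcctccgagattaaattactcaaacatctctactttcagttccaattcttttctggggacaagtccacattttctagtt
Gzmb, chr15:34462470-34462719, minus strand: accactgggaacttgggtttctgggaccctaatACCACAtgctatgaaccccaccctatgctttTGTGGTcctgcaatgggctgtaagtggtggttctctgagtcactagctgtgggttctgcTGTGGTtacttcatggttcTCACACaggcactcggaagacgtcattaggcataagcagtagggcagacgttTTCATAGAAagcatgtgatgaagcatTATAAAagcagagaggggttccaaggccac
Prf1, chr20:29788790-29789039, plus strand: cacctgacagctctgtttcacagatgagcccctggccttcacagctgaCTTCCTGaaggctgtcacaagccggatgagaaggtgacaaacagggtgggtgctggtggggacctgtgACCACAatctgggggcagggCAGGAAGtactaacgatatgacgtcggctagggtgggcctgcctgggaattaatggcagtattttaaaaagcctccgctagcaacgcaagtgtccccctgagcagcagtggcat
Nkg7, chr1:102981247-102981496, plus strand: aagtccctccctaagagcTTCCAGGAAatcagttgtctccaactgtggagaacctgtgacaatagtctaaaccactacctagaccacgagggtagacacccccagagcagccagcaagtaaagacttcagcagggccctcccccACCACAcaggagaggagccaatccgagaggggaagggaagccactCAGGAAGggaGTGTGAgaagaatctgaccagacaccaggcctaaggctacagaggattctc

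Each of these 4 promoters held the Runx motif TGTGGT, which 14.5% of 33469 rat promoters of this length hold on either strand. Gzmb held 3 copies, the others 1 each. The T-box motif GTGTGA, found in 11.6% of promoters, was in Klrk1, Gzmb and Nkg7. The Ets motif CAGGAAG, found in 10.2%, was in Prf1 with 2 copies and in Nkg7 with 1. The interferon gamma activated site TTCNNNGAA, found in 7.67%, was in Gzmb and Nkg7, and the TATA motif TATAAA, found in 12.9%, was in Gzmb with its first base at -30 from the start. The cyclic AMP element TGACGTCA, found in 1.59%, was in none of them. No matched motifs overlapped. In the Ifng promoter, also in the table, TATAAA was the only one of the 6 motifs found. A match is a description of letters, and no binding was measured.

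On day 6, 3 of the 8 tested genes were higher at the high dose than in air and none was lower. Over all genes, 21.1% were higher and 15.4% lower in this comparison (12.4% higher with median centring of the arrays, 17.3% higher in the authors' deposited table), and no test set the 3 of 8 against that share. Klrk1 rose 1.99-fold, Ctsw 1.96-fold and Il2rb 1.46-fold. Prf1 and the receptors Klrd1 and Ncr1 stood close to the air level. The median log2 fold change of the 8 genes was 0.34, against 0.01 over all genes. In whole lung, more cells of a type and more RNA per cell cannot be told apart.

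**Figure D1:**
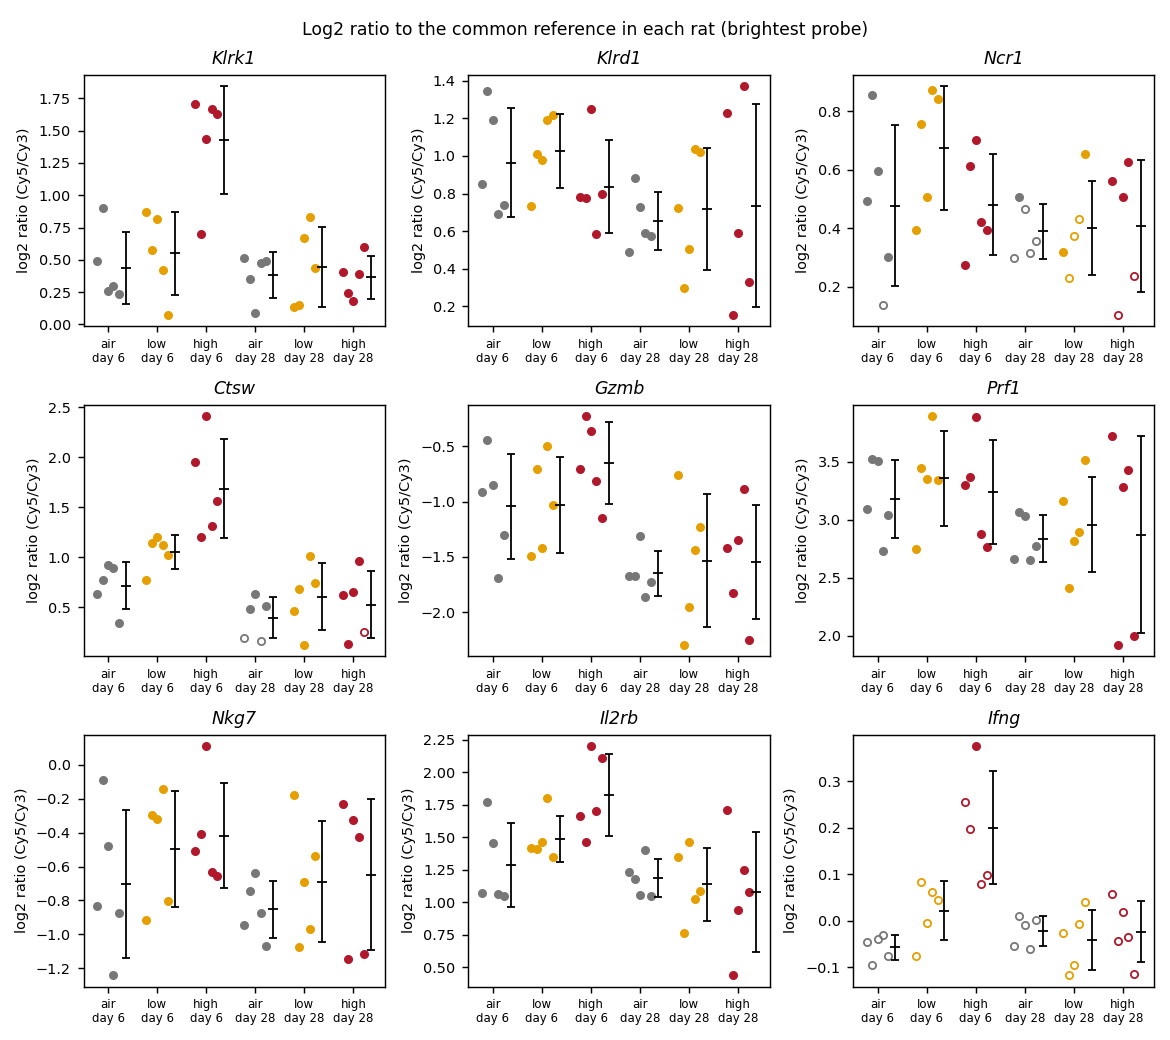
Log2 ratio to the common reference in each rat (points) for the 9 genes in the 6 groups, at each gene's brightest probe; the bar beside each group is the mean ± SD over 5 rats, and open points are arrays on which the probe was not well above background. Each gene has its own vertical scale. The high dose rats of day 6 stand above the air rats for Ctsw, for Ifng near background, and for Klrk1 with 1 exception. The groups overlap for Klrd1, Ncr1, Gzmb, Prf1, Nkg7 and Il2rb.

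Klrk1, the NKG2D receptor gene, was at 1.70, 0.70, 1.44, 1.66 and 1.63 in high dose rats 75 to 79 of day 6. In the air rats 1 to 5 of day 6 it was at 0.49, 0.90, 0.26, 0.30 and 0.23. Of the high dose rats, 4 lay above every air rat, and rat 76 lay below air rat 2, so the groups overlapped. The log2 fold change was 0.99 ± 0.18 (SE; 5 rats in each group; adjusted p = 6.02e-05), and 1.17 without rat 76. The second Klrk1 probe gave 0.82 to 1.86 in high dose rats and 0.14 to 0.63 in air rats, with no overlap. Its log2 fold change was 1.23 ± 0.14 (adjusted p = 4.21e-08). Within each of the 4 slides that held both groups, the brightest probe was higher at the high dose, by 0.34 to 1.41.

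Klrd1 and Ncr1, the other natural killer receptor genes of the set, gave no call. Klrd1, for CD94, was at 0.78, 0.77, 1.25, 0.58 and 0.80 in the high dose rats and at 0.85, 1.35, 1.19, 0.69 and 0.74 in the air rats. Its log2 fold change was -0.13 ± 0.19 with a 95% interval from -0.52 to 0.26 (adjusted p = 0.643). These values interleave, and the interval does not reach the change of Klrk1. Ncr1, for NKp46, was at 0.27 to 0.70 in high dose rats and 0.14 to 0.86 in air rats. Its log2 fold change was 0.00 ± 0.12, with an interval from -0.25 to 0.26 (adjusted p = 0.986). The Ncr1 probe was dim: it was well above background on all 5 arrays of each exposed group of day 6, on 4 air arrays of that day and on 1 air array of day 28.

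Il2rb, the shared interleukin 2 and 15 receptor chain, was at 1.66, 1.47, 2.20, 1.70 and 2.11 in the high dose rats of day 6. In the air rats it was at 1.07, 1.77, 1.46, 1.06 and 1.05. The groups overlapped, because air rat 2 lay above 3 of the high dose rats. The log2 fold change was 0.54 ± 0.18 (adjusted p = 0.0199) and lay between 0.13 and 0.74 within slides. The call ended with median centring (0.44, adjusted p = 0.131) and without any of air rats 1, 4 or 5 or high dose rats 77 or 79 (adjusted p between 0.0517 and 0.0706). Klrk1 and Ctsw passed without air rat 4, at 0.95 and 1.02.

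Among the granule genes, Ctsw was the one whose groups did not overlap. It was at 1.95, 1.20, 2.41, 1.31 and 1.56 in the high dose rats and at 0.63, 0.77, 0.92, 0.89 and 0.34 in the air rats. Every high dose rat lay above every air rat, which held for 1 of the 8 genes and for 16.8% of all genes. The log2 fold change was 0.97 ± 0.19 (adjusted p = 0.000183), and 0.66 to 1.49 within slides.

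Gzmb depended on the probe. At its brightest probe it was at -1.15 to -0.23 in high dose rats and -1.69 to -0.45 in air rats, a log2 fold change of 0.39 ± 0.27 (adjusted p = 0.271). Its second probe, added after the data were seen, gave 0.59 ± 0.20 (adjusted p = 0.0236). The groups overlapped at both probes, from -1.54 to -0.75 at the high dose and -2.21 to -1.18 in air at the second one.

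Perforin and Nkg7 gave no call. Prf1 was at 3.30, 3.36, 3.88, 2.88 and 2.77 in high dose rats and at 3.09, 3.52, 3.51, 2.73 and 3.04 in air rats, a log2 fold change of 0.06 ± 0.29 (adjusted p = 0.897). Its 95% interval, -0.53 to 0.65, does not reach a doubling. Nkg7 was at -0.65 to 0.11 in high dose rats and -1.24 to -0.09 in air rats, a log2 fold change of 0.28 ± 0.21 (adjusted p = 0.315). Both genes were highest, among the high dose rats, in rat 77.

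**Figure D2:**
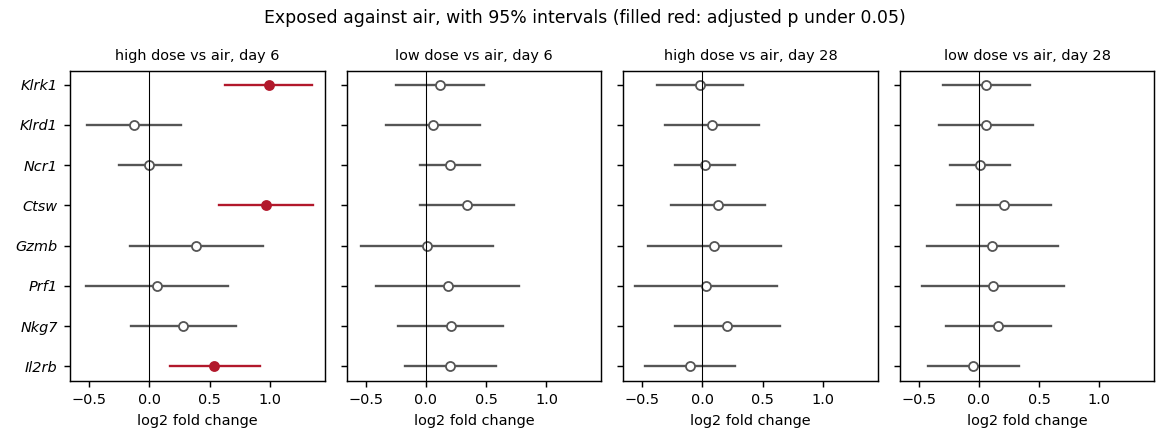
Log2 fold changes of the 8 tested genes, exposed against air rats, at each dose and day; points are estimates, lines their 95% intervals, and filled red points passed at an adjusted p of 0.05. Klrk1 (0.99), Ctsw (0.97) and Il2rb (0.54) passed at the high dose on day 6, and no gene passed in the other 3 comparisons.

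Ifng, the cytokine these cells secrete, lay near the detection limit. Its log2 ratio was 0.25, 0.20, 0.37, 0.08 and 0.10 in the high dose rats of day 6, and -0.09 to -0.03 in the air rats. All high dose rats lay above all air rats, but the probe was well above background in 1 of them, rat 77, and in no rat of another group. Ratios that close to background are compressed towards 0. In a fit with no filter on dim probes, over 26913 genes, Ifng gave 0.26 ± 0.05 (adjusted p = 0.000304).

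At the low dose on day 6 none of the 8 genes passed, where 4.97% of all genes were higher. By limma, none of the 8 was under 0.05 before adjustment either, against 20.3% of all genes. Ctsw was at 0.77, 1.14, 1.20, 1.12 and 1.02 in low dose rats 47 to 51, which overlaps with the air rats. Its log2 fold change from air was 0.34 ± 0.19 (adjusted p = 0.326). Klrk1 was at 0.07 to 0.87, with a log2 fold change of 0.12 ± 0.18 (adjusted p = 0.77), and Il2rb at 1.35 to 1.80, with 0.20 ± 0.18 (adjusted p = 0.573). The other log2 fold changes lay between 0.01 for Gzmb and 0.21 for Nkg7. Each dose was set against the same air rats.

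Compared directly on day 6, Klrk1 was higher at the high than at the low dose by 0.87 ± 0.18 (adjusted p = 0.00109) and Ctsw by 0.63 ± 0.19 (adjusted p = 0.0275), so 2 of 8 genes passed against 8.01% of all genes. In Klrk1, rat 76 at the high dose (0.70) lay below low dose rats 47 and 49 (0.87 and 0.81). In Ctsw, the lowest high dose rat and the highest low dose rat were level at 1.20. The Ctsw difference did not pass without low dose rats 47 or 51 or high dose rats 75 or 77 (adjusted p between 0.052 and 0.127). It also ended with median centring (0.0532), with the scanner software's processed signals (0.241) and with the compared groups alone in the fit (0.0681). Without low dose rat 49, high in heart muscle genes, both passed in limma's fit, Klrk1 at 0.94 (adjusted p = 0.00138) and Ctsw at 0.67 (adjusted p = 0.038). Il2rb differed by 0.34 ± 0.18 (adjusted p = 0.262).

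On day 28 none of the 8 genes passed limma's test in any comparison, and none was under 0.05 before adjustment. The share of all genes under 0.05 before adjustment was computed for day 6 only. Over all genes, 0.185% passed at the high dose against air, 0.0109% at the low dose against air and 0.141% between the doses. Klrk1 was at 0.40, 0.24, 0.18, 0.39 and 0.60 in high dose rats 80 to 84 and at 0.51, 0.35, 0.09, 0.47 and 0.49 in air rats 6 to 10. The values interleave, and the log2 fold change was -0.02 ± 0.18 (adjusted p = 0.974). Ctsw gave 0.13 ± 0.19 (adjusted p = 0.785) and Il2rb -0.10 ± 0.18 (adjusted p = 0.827). The largest of the 8 at the high dose was Nkg7, at 0.20 ± 0.21 (adjusted p = 0.675), and at the low dose Ctsw, at 0.21 ± 0.19 (adjusted p = 0.785).

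The high dose effect itself differed between the days for 2 of 8 genes, where 11.2% of all genes had a lower effect on day 28. For Klrk1 it was lower on day 28 by 1.01 ± 0.25 (adjusted p = 0.00489) and for Ctsw by 0.84 ± 0.27 (adjusted p = 0.0294). For Il2rb the difference was -0.65 ± 0.26 (adjusted p = 0.0851). On day 28 the Ctsw probe was well above background on 3 of 5 air arrays and 4 of 5 high dose arrays. The Ctsw difference ended with the processed signals (adjusted p = 0.16) and without air rat 5 of day 6, high dose rats 75 or 77 of day 6 or 81 or 84 of day 28 (adjusted p between 0.0538 and 0.0678). The Klrk1 difference passed in every alternative run, with adjusted p up to 0.0374. Without high dose rat 83 of day 28, also high in heart muscle genes, both passed, Klrk1 at -1.01 (adjusted p = 0.0081) and Ctsw at -0.95 (adjusted p = 0.0154). For the low dose effect none of the 8 genes passed, and none was under 0.05 before adjustment (1.95% of all genes passed). Between air rats of the 2 days none of the 8 genes passed (2.95% of all genes did), and 1, Gzmb, was under 0.05 before adjustment. For this comparison and for the low dose effect, the share of all genes at that unadjusted threshold was not computed. Gzmb in air was at -1.86 to -1.31 on day 28 and -1.69 to -0.45 on day 6, a difference of -0.60 ± 0.27 (adjusted p = 0.167).

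On day 28 the high dose rats had the largest SD of the 6 groups for Prf1, Klrd1, Il2rb and Nkg7. The air rats of that day had the smallest SD for each of these genes. Prf1 was at 3.72, 1.92, 3.28, 3.43 and 2.00 in high dose rats 80 to 84, an SD of 0.84, against 2.65 to 3.07 and an SD of 0.20 in the air rats. The SD of Prf1 was 0.34 in the air rats of day 6 and 0.41 in the low dose rats of day 28. Klrd1 was at 1.23, 0.16, 0.59, 1.37 and 0.33 in the same rats, an SD of 0.54 against 0.15 in air, 0.32 at the low dose and 0.29 in the air rats of day 6. Rats 81 and 84 were low in Prf1 and Klrd1, and rats 80 and 83 high. Nkg7 was at -0.23, -1.15, -0.33, -0.42 and -1.12, with the same 2 rats lowest, and its SD of 0.45 was near the 0.44 of the air rats of day 6. Il2rb was at 1.71, 0.44, 0.94, 1.24 and 1.08 in high dose rats 80 to 84, lowest in rat 81 and highest in rat 80. Its SD was 0.46, against 0.15 in the air rats of day 28 and 0.32 in those of day 6. The spread was not tested.

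The genes varied together between rats of 1 group, with Klrk1 as the exception. After subtracting group means, Pearson's r over the 30 rats was above 0 in 24 of the 28 pairs, with a median of 0.56. It was 0.86 for Prf1 and Nkg7, 0.85 for Klrd1 and Prf1, 0.82 for Klrd1 and Ncr1 and 0.81 for Ncr1 and Prf1. Against the mean of the other 7 genes, r was 0.89 for Klrd1, 0.86 for Prf1, 0.82 for Nkg7, 0.78 for Ncr1, 0.67 for Gzmb, 0.64 for Il2rb and 0.52 for Ctsw, but 0 for Klrk1. Klrk1 reached 0.36 with Il2rb and -0.23 with Gzmb. These values are descriptions, since the genes of a rat share its array and its slide.

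**Figure D3:**
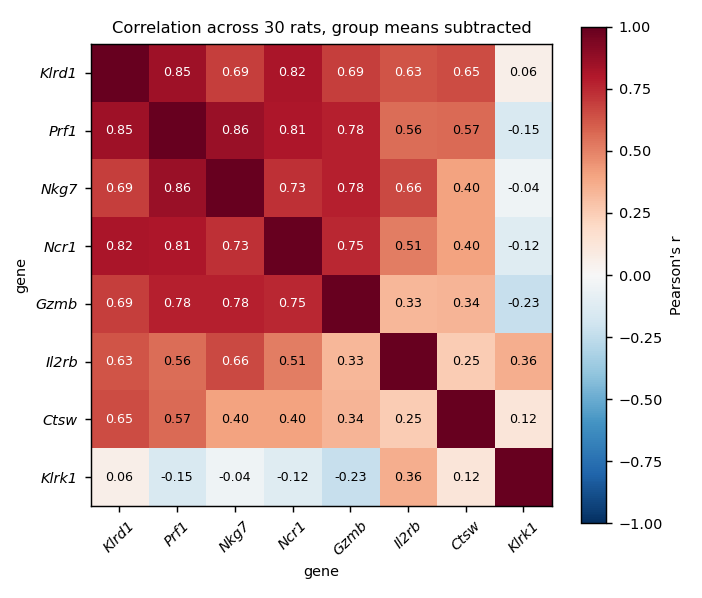
Pearson's r between the log2 ratios of each pair of the 8 tested genes over 30 rats, after subtracting each group's mean; red is positive and blue negative. Klrd1, Prf1, Nkg7, Ncr1 and Gzmb form a block with values from 0.69 to 0.86, and the Klrk1 row lies between -0.23 and 0.36.

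The genes outside the set most like the mean of the 8 were Gzmk (r = 0.92), Ccl5 (0.89), Sh2d1a (0.88), Klrb1a (0.87), Klrb1c (0.87) and Gzma (0.86), over the same 30 rats. Gzmk and Gzma encode granzymes, Ccl5 a chemokine of cytotoxic lymphocytes, Sh2d1a the signalling adaptor SAP, and Klrb1a and Klrb1c lectin-like receptors of natural killer cells. None of these 6 passed at the high dose on day 6, where their log2 fold changes lay between -0.19 for Gzmk and 0.27 for Klrb1c.

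Unequal changes within the set were compared inside each array, which takes out the array's own scaling. In the high dose rats of day 6, Klrk1 gained 1.12 ± 0.25 (log2) over Klrd1 relative to the air rats, as did Ctsw by 1.1 ± 0.19 and Il2rb by 0.67 ± 0.11. In each of these 3 pairs the 5 high dose rats did not overlap the 5 air rats, at an exact two-sided permutation p of 0.00794, the smallest that 5 against 5 rats allow. After adjustment over all 28 pairs none passed, the smallest adjusted p being 0.0636. Klrk1 and Ctsw differed by 0.02 ± 0.28 (exact permutation p = 0.944).

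Related genes were read from lists chosen with earlier results of these data known. At the high dose on day 6, 4 of 13 natural killer receptors and adaptors rose and none fell, with a median of 0.27, against 21.1% of all tested genes higher and 15.4% lower. No difference between a list and all genes was tested. The signalling adaptors Tyrobp (DAP12) and Hcst (DAP10, the partner of NKG2D) rose by 0.84 ± 0.19 and 0.47 ± 0.14, both of them also made by myeloid cells. The receptor genes Klrc3 and Klri1 rose by 1.16 ± 0.37 and 0.71 ± 0.27. Such receptors form near-identical families, and cross-hybridisation was not tested.

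Of 16 further granule and killing genes, 5 rose and none fell (median 0.31), against the same 21.1% and 15.4%. Cst7, the cathepsin inhibitor cystatin F, rose by 1.65 ± 0.16 and Ctsc, the protease that activates granzymes, by 1.12 ± 0.10. Rab27a and Stxbp2, which serve granule exocytosis, rose by 0.75 ± 0.12 and 0.79 ± 0.14, and the death receptor Fas by 0.32 ± 0.09. Neutrophils and macrophages also use Ctsc, Rab27a and Stxbp2, and which cells made the Cst7 RNA was not tested. The 4 granzymes of this list gave no call, with Gzma at -0.15 ± 0.33, Gzmk at -0.19 ± 0.34, Gzmc at 0.35 ± 0.22 and Gzmm at 0.30 ± 0.26.

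Of 15 cytokines and receptors that act on these cells, 7 rose and 1 fell (median 0.19), against 21.1% and 15.4% of all genes. Jak3, the kinase of the common gamma chain, rose by 1.29 ± 0.14, Il2ra, the interleukin 2 receptor alpha chain, by 0.55 ± 0.08, and Il12b, the p40 chain, by 0.73 ± 0.14. Il18bp, the binding protein that neutralises interleukin 18, rose by 0.83 ± 0.17. Il15, the survival factor of natural killer cells and a ligand of the Il2rb chain, fell by 0.58 ± 0.14 (adjusted p = 0.00149). Of 8 transcription factors of effector lymphocytes 1 rose, against 21.1% of all genes: Nfil3 (0.58 ± 0.10), which is also a clock output gene. Zeb2, Id2 and Runx3 were at -0.36 ± 0.17, 0.29 ± 0.14 and 0.19 ± 0.10, and Tbx21, for T-bet, at 0.04 ± 0.18, none of them past the threshold.

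Genes of the interferon gamma receptor and its response were read next. Of 14 receptor and induced genes 13 rose at the high dose on day 6 and none fell, with a median of 0.80, against 21.1% of all genes higher. Ifngr2, a receptor chain, rose by 0.99 ± 0.11, the guanylate-binding proteins Gbp2 and Gbp5 by 1.28 ± 0.15 and 1.12 ± 0.14, and the inhibitor Socs1 by 0.67 ± 0.09. Many of these genes respond to type I interferon too. At the low dose none of the 14 passed limma's test, against 4.97% of all genes higher. Before adjustment 2 of the 14 were under 0.05 there, against 20.3% of all genes. Between the doses, 11 were higher at the high than at the low dose, against 8.01% of all genes. Their high dose effect was lower on day 28 than on day 6 for 10 of 14, against 11.2% of all genes.

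Of 10 ligands of natural killer receptors 6 rose and 1 fell, Clec2dl1 (-0.33 ± 0.12), against 21.1% and 15.4% of all genes. B2m, the light chain of class I molecules, rose by 1.02 ± 0.13, Nectin2, a ligand of the receptor DNAM-1, by 0.86 ± 0.14, and the class I genes RT1-M3-1 and RT1-CE10 by 0.54 ± 0.13 and 1.80 ± 0.46. Class I genes are highly similar in sequence, and their probes may not separate them. Raet1l, a ligand of NKG2D, was at 0.33 ± 0.15 (adjusted p = 0.0977). Of 8 lymphocyte chemokines and their receptors 4 rose (median 0.77), against 21.1% of all genes. Xcl1, a chemokine of activated natural killer and CD8 T cells, rose by 1.83 ± 0.26, Ccl4 by 1.47 ± 0.15, Cx3cl1, for fractalkine, by 1.05 ± 0.17 and the receptor Cxcr3 by 1.01 ± 0.16. Ccl5 was at 0.04 ± 0.33. On day 6 at the low dose, 3 of 16 granule and killing genes and 2 of 15 cytokines and receptors rose. So did 1 of 10 ligands and 1 of 8 chemokines and their receptors, against 4.97% of all genes. No gene of the other lists passed there, and none of any list fell, against 1.75% of all genes lower. Of the 84 genes of these 7 lists, 0 passed limma's test at the high dose on day 28, against 0.185% of all genes. Before adjustment 11 of the 84 were under 0.05. The share of all genes at that unadjusted threshold was not computed for day 28, so this count has nothing to be read against.

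**Figure D4:**
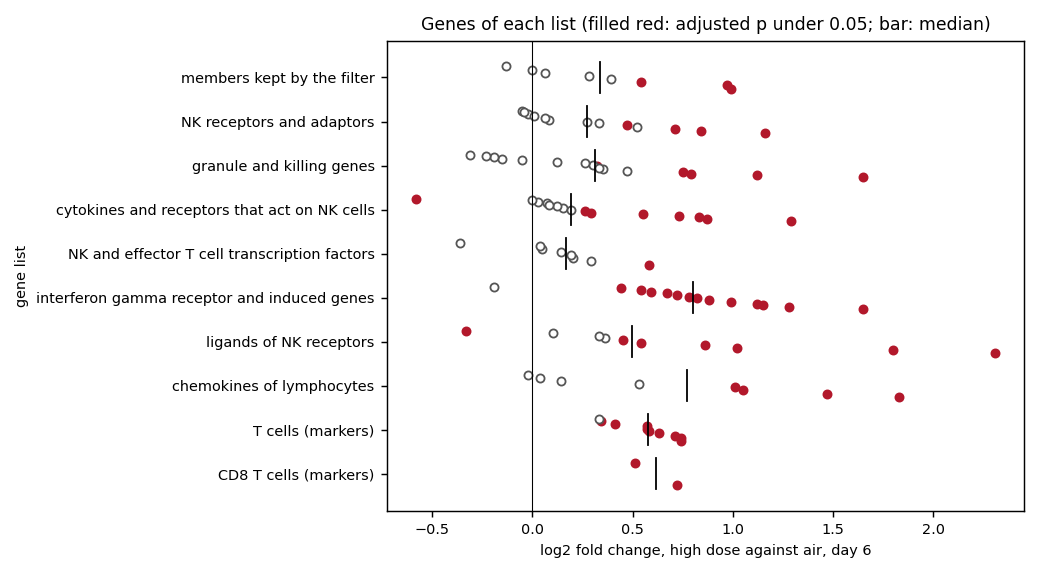
Log2 fold change at the high dose against air on day 6 for each tested gene of the set and of 9 related lists; filled red points passed at an adjusted p of 0.05, and the vertical bar is the list's median. The medians run from 0.16 (transcription factors) to 0.80 (interferon gamma receptor and induced genes), with 0.34 for the 8 tested genes.

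Markers of T cells were read in the same rats, and 1 of the listed genes, Cd247, is also in the natural killer receptor list. At the low dose on day 6, none of 10 T cell markers passed limma's test, against 4.97% of all genes higher. Before adjustment 6 of them were under 0.05, against 20.3% of all genes. At the high dose on day 6, 9 of 10 T cell markers rose (median 0.58), against 21.1% of all genes, among them Cd3g (0.74 ± 0.18) and Cd2 (0.74 ± 0.12). Their mean per rat was 0.31 to 0.75 at the high dose, -0.11 to 0.55 at the low dose and -0.14 to 0.15 in air. The CD8 chains Cd8a and Cd8b rose by 0.72 ± 0.23 and 0.51 ± 0.15, and their mean was 0.28 to 1.04 in high dose rats and -0.25 to 0.48 in air rats, which overlap. Both tested genes of the CD4 T cell list, Cd4 and the costimulatory receptor Icos, rose by 0.30 ± 0.10 and 1.75 ± 0.16. Their mean was 0.69 to 1.28 in high dose rats and -0.10 to 0.08 in air rats, with no overlap. Which cells made the Cd4, Cd8a and Cd8b RNA was not tested. None of 4 markers of innate lymphoid cells passed, with 0 under 0.05 before adjustment, against 45.2% of all genes. Their median per rat ran from -0.04 in air to 0.34 at the high dose. All 5 neutrophil markers, 5 of 7 monocyte and macrophage markers and all 5 markers of dividing cells rose at the high dose on day 6. That was against 21.1% of all genes. The low dose of day 6 raised all 5 neutrophil markers, 2 of the 7 monocyte and macrophage markers and all 5 markers of dividing cells. It also raised 1 of the 2 genes of the CD4 T cell list, against 4.97% of all genes. Ptprc, the pan-leukocyte gene CD45, was at 0.18 ± 0.14 (adjusted p = 0.315). The part of these cells in the changes of Klrk1, Ctsw and Il2rb was not tested.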

How the data were processed

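Per the file headers, the authors deposited spot intensity values from Agilent Feature Extraction 11.0.1.1 for each 2-colour array. Per the labels, Cy5 carried lung RNA and Cy3 a common reference, which the labels name in one place as mouse and in another as rat RNA. The authors' deposited table of log2 ratios served as an alternative; the sources used here do not give its normalization. It correlated at 0.997 to 1 with the loess ratios here, so it was read as log2 sample over reference.

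Median intensities were corrected with normexp (offset 50), turned into log2 ratios and normalized by loess within arrays, leaving out control and outlier spots. The offset shrinks ratios of dim probes. The brightest kept probe stood for each gene. Group means were fitted with limma 3.58.1 (R 4.3.3), with 9 comparisons and Benjamini-Hochberg adjustment over 18421 genes at 0.05. The median SE between groups was 0.115. The fit was tested on simulated data. Precision rests on 5 rats per group. Arrays came from 4 slides, each with several groups.

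The genes, lists and tests were chosen with earlier results of these data known. The text names all 9 genes, up to 4 genes per list (smallest p, high dose against air, day 6) and the 6 genes most like the set. Fas, Gzma, Gzmk, Gzmc, Gzmm, Il15, Tbx21, Raet1l, Clec2dl1, Ccl5 and the named T cell and leukocyte markers were added after their values were seen. The chemokine list omits 1 gene, which is not reported here. Alternatives covered the filter, background, scaling, signal, probes, slide, groups in the fit and each rat left out.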

Additional observations from a re-analysis of the deposited data

Results flagged for a closer look

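Of 48 groups of 5 rats (8 genes in 6 groups), 2 held a rat far from its group, and chance gives about 1 in 20. In Klrk1, high dose rat 76 of day 6 stood at 0.70, with the other 4 at 1.44 to 1.70; the second probe put the same rat lowest, at 0.82. In Il2rb, low dose rat 50 of day 6 stood at 1.80, with the other 4 at 1.35 to 1.46.

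The high dose effect differed between day 6 and day 28 by a test of the difference for Klrk1 (-1.01, adjusted p = 0.00489) and Ctsw (-0.84, adjusted p = 0.0294).

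Ifng, left out of the fit as too dim, had a mean log2 ratio of 0.20 in the high dose rats of day 6, above the -0.06 of the air rats. The signal was well above background in 1 of those 5 rats. With no filter its high dose effect on day 28 minus that on day 6 was -0.26 ± 0.07 (adjusted p = 0.0172).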

How the results depend on the processing

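No paired analysis was possible because the labels' rat numbers are not shared between groups. Of 1546 values of single genes under an alternative, 1523 kept their side of the threshold, 19 lost and 4 gained a call, and 0 called values turned direction. Most of the 1546 belonged to results with no call in the main fit, which could not lose one. All losses fell on Ctsw and Il2rb, and Klrk1 lost none. Ctsw between the doses lost its call in 3 of 9 other settings and in 4 of 10 runs with 1 rat left out. For Ctsw between days these were 1 of 9 and 5 of 20. For Il2rb at the high dose on day 6 they were 1 of 9 and 5 of 10. The sign changed in 139 of the 1546 values, none called in either setting and all with a main value within 0.12 of 0. The 2 genes called between the doses on day 6 became 1 with median centring, with processed signals and with the compared groups alone, and 1 to 2 with 1 rat left out. The 2 genes whose high dose effect differed between days became 1 with processed signals, and 1 to 3 with 1 rat left out. In each such loss the gene was Ctsw, and the cause was not tested. Il2rb passed in the difference between days without air rat 2 or high dose rat 76 of day 6 or 80 of day 28 (adjusted p = 0.0369, 0.0477 and 0.021). Median centring lowered the calls over all genes on day 6 from 1238 to 573 at the low dose and from 2188 to 1008 between doses, and from 3084 to 1623 for the high dose effect between days. At the high dose on day 6, 57.7% of calls were higher, against 43.6% after median centring, 46.1% in the authors' deposited table and 47.6% from Cy5 only. On day 28 the 34 calls at the high dose became 8 with median centring, 105 with Cy5 alone and 12 with the compared groups alone, and the 543 between air days became 127 with median centring and 1161 with the compared groups alone. Signal over background limits Ifng, Ncr1 on day 28 and, in part, Ctsw on day 28. On that day Ncr1 was well above background on 1 air, 2 low dose and 3 high dose arrays. Ctsw was so on 3 air, 5 low dose and 4 high dose arrays.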
